A study of Homo sapiens with 9 samples.

Results

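The 8 genes described here are the lysyl oxidases LOX, LOXL1, LOXL2, LOXL3 and LOXL4 and the lysyl hydroxylases PLOD1, PLOD2 and PLOD3, taken by name from count tables of 61541 gene identifiers, and all 8 were found. They were measured by RNA sequencing in H69, a cholangiocyte line of human origin that was immortalized. Cholangiocytes are the epithelial cells lining the bile ducts. The 9 libraries came from wild-type cells, with 3 libraries from cells given recombinant human Laminin511-E8 at 0.25 µg/cm2, 3 from cells given acetazolamide at 10 µM and 3 from control cells (Ctrl) given 10 µl of DMSO. Treated cells had been grown for 48 hours to confluency and were harvested after 48 hours of treatment, with the medium renewed after 24 hours, and the labels call the 3 samples of each group biological replicates. The labels do not say whether the Laminin511-E8 wells also received DMSO. They give no DMSO amount for treated cells, and no treatment time or medium change for Ctrl cells. Laminin511-E8 is the integrin-binding fragment of a basement membrane laminin, and acetazolamide inhibits carbonic anhydrases. All cells were of 1 line grown in culture plates, so the values describe that line and not bile duct tissue.

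Both enzyme families act on lysine residues of collagens. Lysyl hydroxylases work inside the endoplasmic reticulum, where they use iron, ascorbate and 2-oxoglutarate to hydroxylate lysines of newly made collagen chains. Lysyl oxidases work mainly outside the cell, where a copper-dependent enzyme oxidizes lysines and hydroxylysines of collagen and lysines of elastin to aldehydes, which then join neighbouring molecules by cross-links. In the liver these cross-links are known for making scar tissue stiff and slow to resolve, and LOX, LOXL2 and PLOD2 are known targets of hypoxia signalling and TGF-beta in other cells.

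Stretches of coding sequence that encode metal-binding residues are shown because the genes that share a catalytic site differ in base composition, and the values of single libraries went with base composition. They were read from the longest protein-coding transcript of each gene in GENCODE release 29 on GRCh38, 5′ to 3′ on the coding strand. In the lysyl hydroxylases the capitals mark the codons of a histidine and an aspartate among the residues that hold the iron.
PLOD1: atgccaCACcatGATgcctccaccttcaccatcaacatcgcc
PLOD2: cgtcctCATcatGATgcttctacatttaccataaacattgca
PLOD3: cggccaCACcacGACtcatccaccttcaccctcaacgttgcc
The PLOD1 stretch lies in exon 18 of 19 (chr1:11972929-11972970, plus strand), the PLOD2 stretch in exon 19 of 20 (chr3:146071069-146071110, minus strand) and the PLOD3 stretch in exon 18 of 19 (chr7:101206806-101206847, minus strand). Of the 14 codons, 11 end in G or C in PLOD1 and 11 in PLOD3, but 2 in PLOD2. The GC content of these 42 bases was 54.8% in PLOD1, 61.9% in PLOD3 and 38.1% in PLOD2.

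In the lysyl oxidases the capitals mark the codons of the 3 histidines of the copper-binding segment.
LOX: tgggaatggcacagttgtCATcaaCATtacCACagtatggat
LOXL1: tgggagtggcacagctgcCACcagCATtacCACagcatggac
LOXL3: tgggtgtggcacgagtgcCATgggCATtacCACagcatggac
LOXL4: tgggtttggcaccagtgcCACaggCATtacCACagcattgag
Each of these runs crosses an exon junction, between exons 3 and 4 of 7 in LOX (chr5:122074151-122075426, minus strand, intron included), exons 3 and 4 of 7 in LOXL1 (chr15:73946532-73947085, plus strand), exons 10 and 11 of 14 in LOXL3 (chr2:74534413-74534553, minus strand) and exons 11 and 12 of 15 in LOXL4 (chr10:98252450-98253575, minus strand). Of the 14 codons, 6 end in G or C in LOX, 13 in LOXL1, 12 in LOXL3 and 11 in LOXL4. LOXL2 is not shown.

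Over whole transcripts the 8 genes fell into a GC-poor pair and 6 GC-rich genes. PLOD2 had 37.6% GC and LOX 39.6%, and the others ranged from 56.4% in LOXL3 to 67.0% in LOXL1. The pair differed in where the low GC lay. The coding sequence of PLOD2 had 39.5% GC, whereas that of LOX had 58.8%, close to the 59.5% of PLOD1, so the low GC of LOX lay in its noncoding exon sequence.

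PLOD2 was by far the most abundant of the 8 genes. It encodes lysyl hydroxylase 2, which modifies lysines in the telopeptides at the ends of collagen chains and so sets the type of cross-link. It had 2359, 1581 and 2524 counts-per-million units (CPM, counts scaled to the total of the library) with Laminin511-E8, 1976, 2711 and 1269 CPM with acetazolamide and 2267, 2078 and 2003 CPM in Ctrl cells. The lowest and the highest value were both in acetazolamide-treated cells, and the Ctrl values lay within the range of each treatment. Means were 2155 ± 503, 1985 ± 721 and 2116 ± 136 CPM in Laminin511-E8, acetazolamide and Ctrl cells (SD, n = 3 each). Among 13496 genes that had 10 counts or more throughout, PLOD2 stood at rank 23 by CPM in Ctrl cells, and at rank 11 when mitochondrially encoded genes were left out. In TPM, the count divided by transcript length and scaled to 1 sum for all libraries, it averaged 1371 ± 339 TPM in Laminin511-E8 cells, 1285 ± 510 TPM in acetazolamide-treated cells and 1352 ± 145 TPM in Ctrl cells (SD, n = 3 each). Its Ctrl level was 74.8 times that of the median gene, at rank 53 of 13376.

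PLOD1 and PLOD3 were expressed at a small part of the PLOD2 level. PLOD1 encodes lysyl hydroxylase 1, which acts in the helical part of collagen chains and whose loss causes the kyphoscoliotic type of Ehlers-Danlos syndrome. It had 64.5, 80.5 and 58.0 CPM in Laminin511-E8 cells, 71.9, 48.5 and 87.3 CPM in acetazolamide-treated cells and 57.4, 53.4 and 80.3 CPM in Ctrl cells. The groups overlapped, and the order of the acetazolamide libraries was the opposite of that for PLOD2. PLOD3 encodes lysyl hydroxylase 3, which also transfers sugars to hydroxylysine. It had 41.9, 58.3 and 41.5 CPM in Laminin511-E8 cells, 52.4, 40.5 and 63.4 CPM in acetazolamide-treated cells and 42.3, 41.3 and 49.3 CPM in Ctrl cells. PLOD2 made up 86.9% to 95.99% of the summed TPM of the 3 hydroxylases in the 9 libraries.

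LOX and LOXL2 were the main lysyl oxidases. LOX, the founding member, is secreted as a proenzyme and cleaved by BMP1. It had 123, 96.8 and 144 CPM in Laminin511-E8 cells, 125, 168 and 93.8 CPM in acetazolamide-treated cells and 150.2, 121 and 139 CPM in Ctrl cells. As with PLOD2, the lowest and highest values were both in acetazolamide-treated cells. LOXL2, which carries scavenger receptor domains and oxidizes collagen IV of basement membranes, had 91.1, 117 and 90.6 CPM in Laminin511-E8 cells, 96.8, 79.7 and 117 CPM in acetazolamide-treated cells and 87.9, 85.0 and 98.2 CPM in Ctrl cells. Its lowest value was in acetazolamide replicate 2, the library with the highest LOX.

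The other 3 oxidases were lower. Among the 13496 ranked genes, LOXL3, LOXL4 and LOXL1 stood at percentiles 18.7, 19.8 and 3.11 by CPM in Ctrl cells. LOXL3, which also carries scavenger receptor domains, had 3.03, 4.40 and 3.16 CPM in Laminin511-E8 cells, 5.11, 3.45 and 5.09 CPM in acetazolamide-treated cells and 3.57, 3.90 and 3.67 CPM in Ctrl cells. LOXL4, of the same structural class, had 3.49, 5.49 and 3.54 CPM in Laminin511-E8 cells, 3.67, 3.66 and 3.94 CPM in acetazolamide-treated cells and 3.73, 4.61 and 3.83 CPM in Ctrl cells. For LOXL3 and LOXL4 the groups overlapped, with the highest LOXL4 value in Laminin511-E8 replicate 2. LOXL1, known in mice for the renewal of elastic fibres, had the fewest reads. It had 17, 29 and 45 counts in Laminin511-E8 cells, 41, 19 and 32 counts in acetazolamide-treated cells and 23, 16 and 22 counts in Ctrl cells, which is 0.747 to 1.94 CPM. All of these counts were above the 3 counts that a reading of 0 would allow in a library, and all 8 genes passed the filter on low counts.

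**Figure D1:**
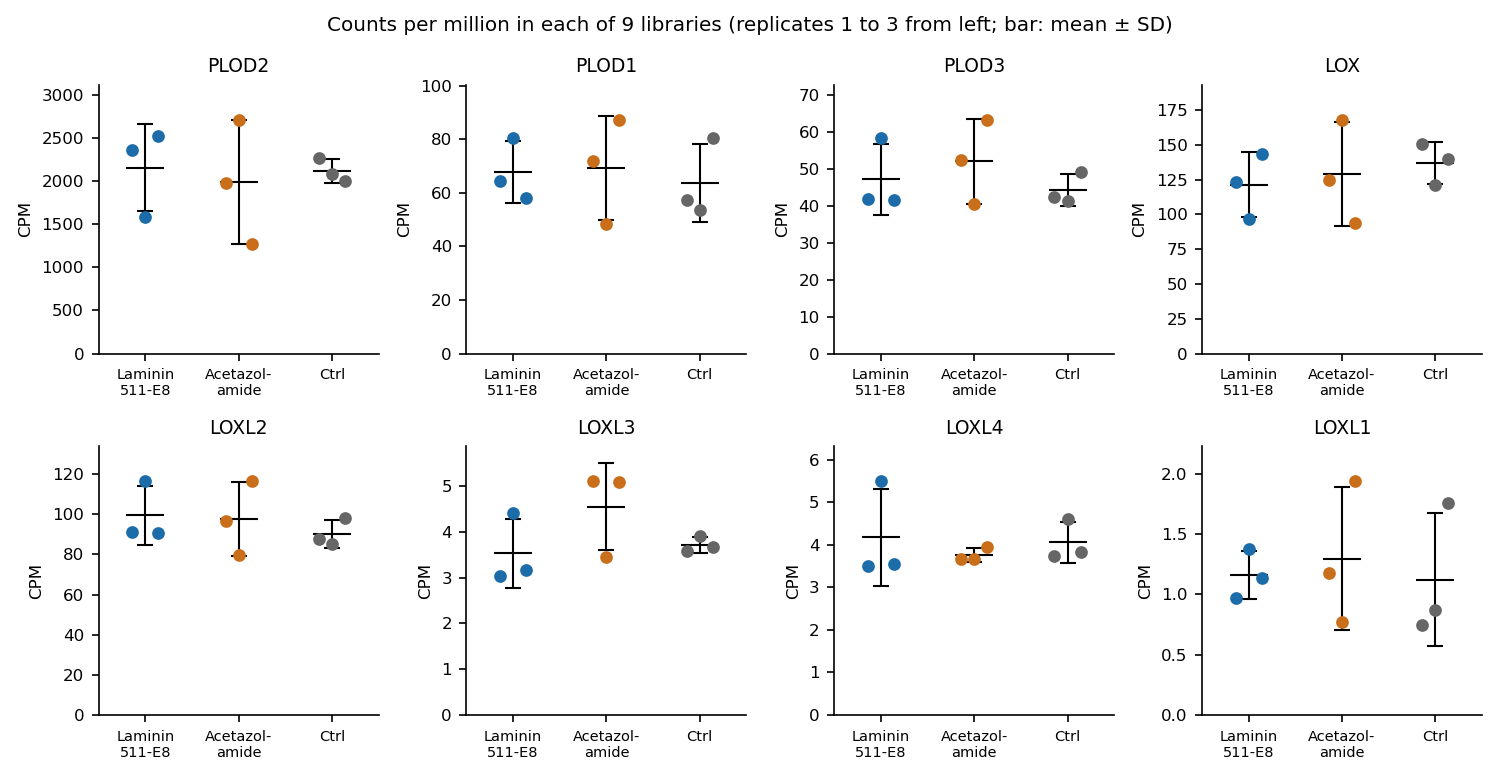
Level in CPM (vertical axes, linear from 0, a separate scale for each gene) of the 8 genes in the 9 libraries, with Laminin511-E8, acetazolamide and Ctrl from left to right. Points are libraries, the bars are the mean ± SD of 3, and for each gene the points of the 3 groups overlap, with PLOD2 between 1269 and 2711 CPM.

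By mean TPM over all 9 libraries the order was PLOD2, LOXL2, LOX, PLOD1, PLOD3, LOXL3, LOXL4 and LOXL1, and neighbours were compared within libraries. PLOD2 was 20.4-fold above LOXL2, PLOD1 was 1.38-fold above PLOD3, PLOD3 was 14.7-fold above LOXL3 and LOXL4 was 2.25-fold above LOXL1, each in 9 of 9 libraries. The two-sided exact permutation test over sign flips gave p = 0.00391 for each of these pairs, which is the smallest that 9 libraries allow, and 0.00684 after Benjamini-Hochberg adjustment over 7 pairs. The pairs and their direction were picked from these same values, and the 9 libraries pool the groups. The p-values in this paragraph therefore describe how steady a ratio was between libraries and do not test the order. A bias of length or overlap shared by all libraries would pass as well. LOXL2 and LOX were not separated (1.08-fold, exact sign-flip permutation p = 0.461, adjusted p = 0.538), nor were LOX and PLOD1 (1.11-fold, exact permutation p = 0.426, adjusted p = 0.538) or LOXL3 and LOXL4 (1.02-fold, exact permutation p = 0.766). LOXL2 was above LOX in 6 of 9 libraries, LOX above PLOD1 in 7 of 9 and LOXL3 above LOXL4 in only 2 of 9. These close orders depended on the length used. With the merged length of all exons, LOX was 1.86-fold above PLOD1 in 9 of 9 libraries (exact permutation p = 0.00391, adjusted p = 0.00547), LOXL2 was 0.728 times the level of LOX (exact permutation p = 0.0234, also after adjustment) and LOXL3 was 0.819 times that of LOXL4 (exact permutation p = 0.0234), while PLOD2 remained highest, 15.99-fold above LOXL2.

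**Figure D2:**
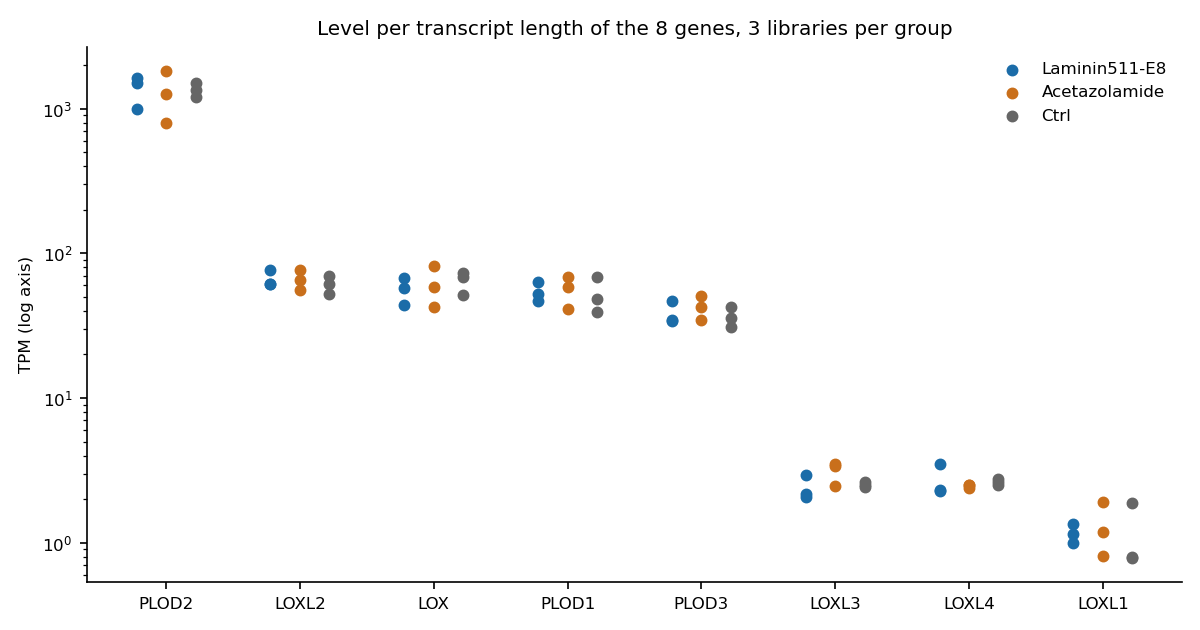
Level of the 8 genes in TPM (vertical axis, log scale), one point per library, with Laminin511-E8, acetazolamide and Ctrl from left to right for each gene. PLOD2 lies between 788 and 1806 TPM, LOXL2, LOX, PLOD1 and PLOD3 between 30.7 and 81.9 TPM, and LOXL3, LOXL4 and LOXL1 between 0.784 and 3.50 TPM.

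Expression of these genes in H69 cells was read beside the markers of other cells that make them. The fibroblast genes COL3A1, LUM and POSTN had 0 counts in all 9 libraries, COL1A2 had at most 3 counts, and COL1A1 had 33.8 to 63.1 CPM. Other markers of this list were present, with THY1 at 47.1 to 82.9 CPM and PDGFRB at 5.14 to 9.94 CPM. Of the 16 listed, 9 passed the filter on low counts. The 16 markers of fibroblasts and stellate cells summed to 395–436 CPM in Laminin511-E8 cells, 328–410 CPM in acetazolamide-treated cells and 345–379 CPM in Ctrl cells, mostly VIM, which epithelial lines also express. Endothelial markers (11 genes) summed to 4.18–6.79 CPM over the 9 libraries and leukocyte markers (12 genes) to 4.23–9.64 CPM. Of the 18 cholangiocyte markers, KRT7 reached 1121–1910 CPM and KRT19 391–903 CPM, while SPP1, SCTR and ANO1 were at 0 in every library. The part of these marker levels in the values of the 8 genes was not tested. The 16 hepatocyte markers summed to 141–160 CPM in Laminin511-E8 cells, 138–147 CPM in acetazolamide-treated cells and 136–149 CPM in Ctrl cells, with APOA1, APOA2 and TTR at 0 in all groups and APOB the highest.

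Total counts ran from 12529867 to 39518899 per library, and mitochondrially encoded genes took 9.43% to 16.2% of them. The libraries differed in how their counts depended on GC content. The GC slope of a library, the change of log2 CPM relative to the mean of the 9 libraries for each 10 percentage points of transcript GC, was -0.13, 0.25 and -0.16 with Laminin511-E8, 0.079, -0.26 and 0.36 with acetazolamide and -0.12, -0.079 and 0.064 in Ctrl cells. Each treatment thus held libraries at both ends, and the Ctrl libraries spanned a narrower range.

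None of the 8 genes was called in Laminin511-E8 cells against Ctrl. In bulk RNA, fewer cells of a kind and less RNA per cell cannot be told apart in this or any other comparison. None passed an adjusted p of 0.05 in edgeR's quasi-likelihood test (0 of 8), and 0 of 15997 genes tested were called (0%). At an unadjusted p of 0.05 the counts were 0 of 8 and 454 of 15997 (2.84%), and for 0 of 8 genes did the groups fail to overlap, against 8.65% of all genes. DESeq2 called 21 genes (0.131%) and limma voom 0 (0%), again with 0 of the 8, against 2.65% of all genes at an unadjusted p of 0.05 with DESeq2 and 2.74% with limma voom. The log2 fold changes ran from -0.19 for LOX to 0.17 for LOXL1, with a median of 0.035 against -0.0033 over all genes. PLOD2 differed by 0.0056 (SE 0.27, 95% interval -0.59 to 0.60, or 0.664 to 1.52 as a fold, edgeR adjusted p = 0.999975). For 7 of the 8 genes the interval excluded a 2-fold change, the exception being LOXL1 (0.17, interval -0.69 to 1.03).

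Acetazolamide gave the same count against Ctrl, 0 of 8 with edgeR at an adjusted p of 0.05, where 0 of 15997 genes were called (0%), and 0 of 8 at an unadjusted p of 0.05, where 292 were (1.83%). DESeq2 called 7 genes (0.0438%) and limma voom 0 (0%), of which 0 were among the 8, and at an unadjusted p of 0.05 they gave 1.58% and 1.76% of all genes. Groups overlapped for all 8 genes, and 5.31% of all genes had groups that did not. The values ran from -0.18 for LOXL4 (SE 0.20) to 0.23 for LOXL3 (SE 0.20) on the log2 scale. PLOD2 differed by -0.15 (SE 0.27, interval -0.75 to 0.45) and LOX by -0.14 (SE 0.22, interval -0.64 to 0.36). A 2-fold change was again outside the interval for 7 of 8 genes, and LOXL1 was the exception (0.21, interval -0.65 to 1.07).

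Laminin511-E8 set against acetazolamide also gave 0 of 8 with edgeR at an adjusted p of 0.05 (0 of 15997 genes, 0%) and 0 of 8 at an unadjusted p of 0.05 (374 genes, 2.34%). DESeq2 called 19 genes (0.119%) and limma voom 0 (0%), none of the 8, with 2.06% and 2.18% of all genes at an unadjusted p of 0.05. In TMM-scaled CPM 6.13% of all genes had groups that did not overlap, against 0 of 8 here. The smallest p of the 8 was that of LOXL3, with a log2 fold change of -0.33 (SE 0.20, edgeR unadjusted p = 0.125, adjusted p = 0.999923). It was -0.50 without acetazolamide replicate 2 (edgeR unadjusted p = 0.0257, adjusted p = 0.614) and -0.49 without Laminin511-E8 replicate 2 (edgeR unadjusted p = 0.0466, adjusted p = 0.811). PLOD2 differed by 0.16 (SE 0.27, interval -0.44 to 0.75). All 8 intervals excluded a 2-fold change.

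**Figure D3:**
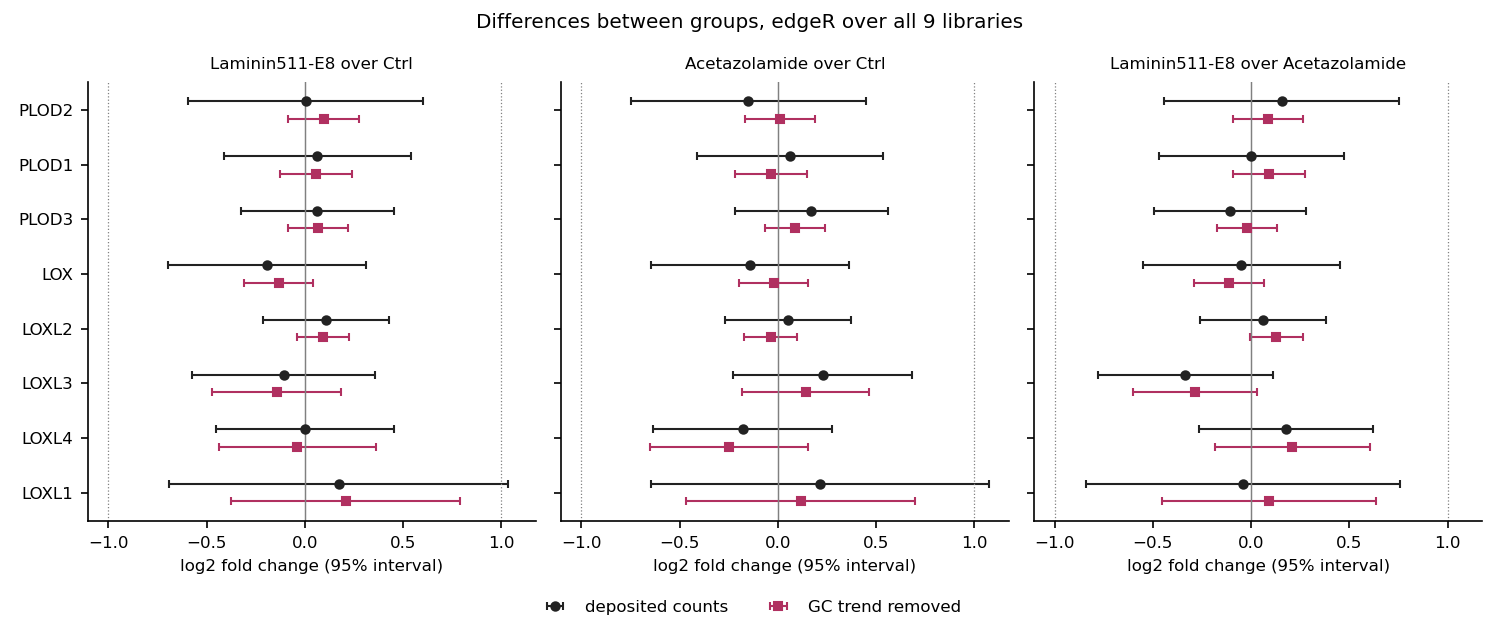
Log2 fold changes (horizontal axes) of the 8 genes in the 3 comparisons, with 95% intervals from edgeR over all 9 libraries, from the deposited counts (circles) and with the GC trend of each library removed (squares). The dotted lines mark a 2-fold change, every interval includes 0, and the PLOD2 interval for Laminin511-E8 over Ctrl runs from -0.59 to 0.60 with the deposited counts and from -0.083 to 0.27 without the GC trend.

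The spread of PLOD2 between libraries of one group was large and followed the GC slope. The slope was fitted over 15737 genes of these same libraries, the 8 among them. A gene of low or high GC is therefore likely to follow it. The p-values here and for the GC-rich genes do not set the 8 apart from genes of like GC. How many such genes follow the slope was not counted. Its within-group SD was 0.41 on the log2 scale, larger than that of 93.1% of 9118 genes with a mean of at least 10 CPM. The lower the GC slope of a library, the higher was PLOD2, without exception in the 9 libraries (Pearson r = -0.99, exact permutation p = 2.76e-06, adjusted p = 2.20e-05 over 8 genes, and Spearman rho = -1, exact permutation p = 5.51e-06, adjusted p = 4.41e-05, in both cases the smallest p that 9 libraries allow). Without Laminin511-E8 replicate 2 and acetazolamide replicate 3, the libraries farthest from the median slope, r was -0.98. LOX, the other GC-poor gene, had r = -0.92 (rho = -0.85, exact permutation p = 0.000879 and 0.00607, adjusted p = 0.00141 and 0.0162), and r = -0.70 without those 2 libraries.

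The GC-rich genes went the other way. PLOD3 had r = 0.99 with the GC slope (rho = 0.95, exact permutation p = 1.10e-05 and 0.000353, adjusted p = 4.41e-05 and 0.00141, r = 0.97 without the 2 libraries). LOXL2 had r = 0.93 (rho = 0.82, exact permutation p = 0.000375 and 0.0108, adjusted p = 0.000999 and 0.0172, r = 0.79 without them). PLOD1 had r = 0.91 (rho = 0.80, exact permutation p = 0.000645 and 0.0138, adjusted p = 0.00129 and 0.0184, r = 0.88 without them). LOXL1 and LOXL3 had r = 0.81 and 0.76 (rho = 0.67 and 0.83, exact permutation p = 0.00852 and 0.0188 for r and 0.0589 and 0.00827 for rho, adjusted p = 0.0114 and 0.0214 for r and 0.0673 and 0.0165 for rho), and r = 0.71 and 0.64 without the 2 libraries. For LOXL4 the relation did not pass (r = 0.35, rho = 0.53, exact permutation p = 0.372 and 0.148, r = 0.053 without them). None of the 8 genes had a relation with the log2 total count of the library that passed (smallest exact permutation p for r = 0.191, adjusted p = 0.587).

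Ratios between members varied between libraries. The ratio of PLOD2 to PLOD1 in TPM ran from 11.5 in acetazolamide replicate 3 to 44.0 in acetazolamide replicate 2, and was 31.1, 30.7 and 19.7 in the Ctrl libraries. The ratio of LOX to LOXL2 was 0.560 in acetazolamide replicate 3 and 1.47 in acetazolamide replicate 2, which puts LOX below LOXL2 in one library and above it in the other. Both extremes belong to the same treatment, and they are the libraries with the highest and lowest GC slope. The summed TPM of the 5 lysyl oxidases varied less, from 109 to 145.

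**Figure D4:**
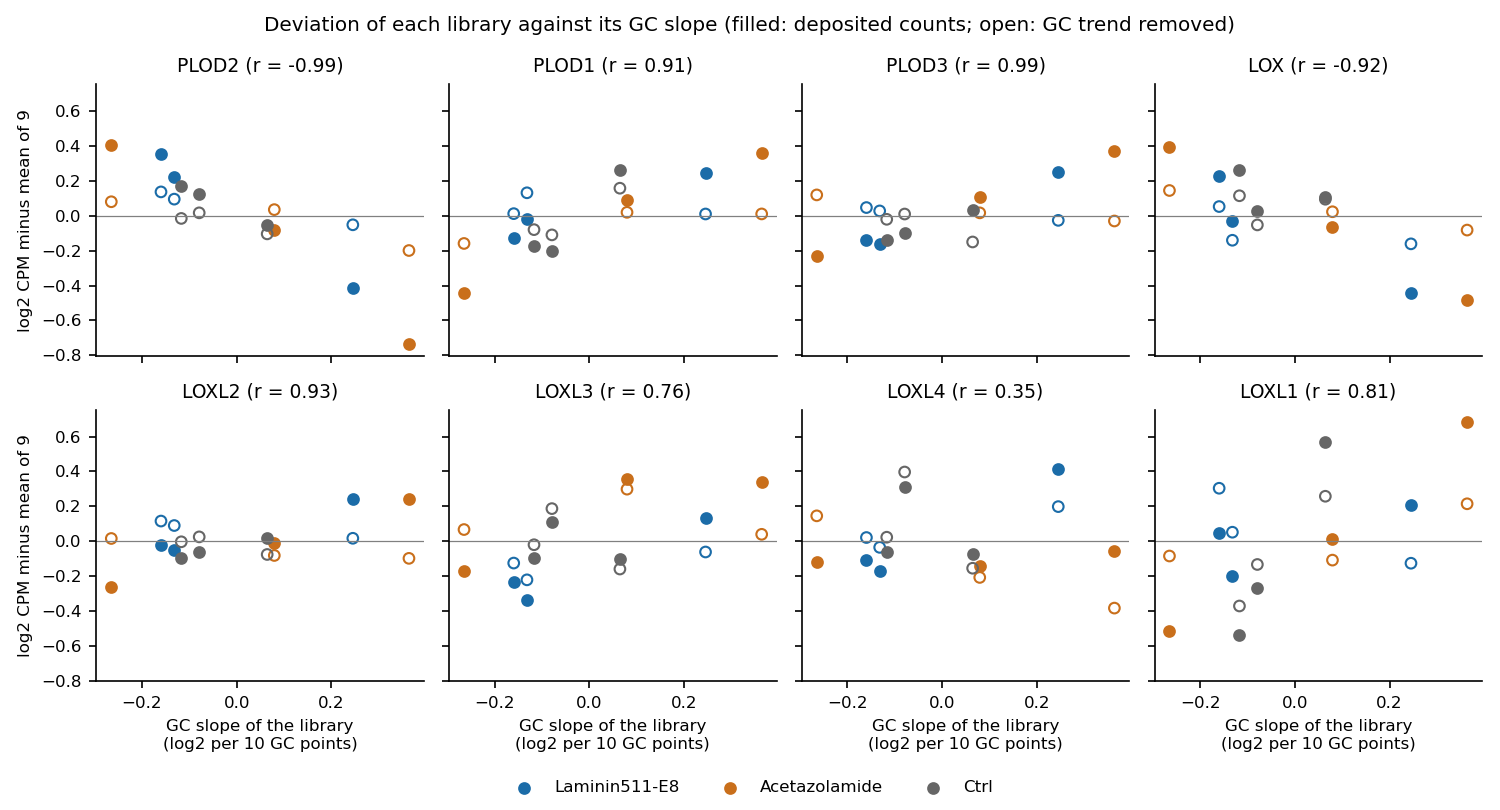
Deviation of each gene from its mean of 9 libraries (vertical axis, log2 CPM) against the GC slope of the library (horizontal axis, log2 per 10 percentage points of GC), filled for the deposited counts and open after the GC trend was removed. PLOD2 and LOX fall with the slope (r = -0.99 and -0.92), PLOD3, LOXL2 and PLOD1 increase with it (r = 0.99, 0.93 and 0.91), and each group has libraries with slopes on both sides of 0.

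With the trend of each library over GC content removed, PLOD2 varied about as much as other genes. Its within-group SD was 0.11 on the log2 scale, at percentile 54.3, and that of the median gene was 0.104, against 0.206 before the removal. LOX went to 0.11, PLOD1 to 0.11, PLOD3 to 0.070 and LOXL2 to 0.055, while LOXL4 had 0.24 with the trend removed and 0.23 before. PLOD2 still had r = -0.83 with the GC slope after the removal. The trend was fitted on the same 9 libraries, so some narrowing follows from the fit, and a group difference that followed GC content would be removed too. With the trend removed edgeR called 51 of 15737 genes in Laminin511-E8 against Ctrl (0.324%, and 7 without Laminin511-E8 replicate 1), 0 in acetazolamide against Ctrl (0%) and 30 in Laminin511-E8 against acetazolamide (0.191%, and 0 without Laminin511-E8 replicate 1), and 0 of 8 in each. At an unadjusted p of 0.05 it gave 0 of 8 in each as well, against 7.74%, 4.16% and 5.67% of all genes.

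The intervals became narrower with the trend removed, but they treat the fitted trend as known and leave out its uncertainty. PLOD2 differed by 0.096 (SE 0.082, 95% interval -0.083 to 0.27) in Laminin511-E8 against Ctrl and by 0.011 (SE 0.082, interval -0.17 to 0.19) in acetazolamide against Ctrl. LOX differed by -0.13 (SE 0.081, interval -0.31 to 0.044) and -0.022 (SE 0.081, interval -0.20 to 0.15) in the same comparisons. The smallest p was that of LOXL2 in Laminin511-E8 against acetazolamide, with 0.13 on the log2 scale (SE 0.061, interval -0.0041 to 0.26, edgeR unadjusted p = 0.0563, adjusted p = 0.902). All 24 intervals excluded a 2-fold change.

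Some of the 28 pairs of members moved together and others in opposite directions. Genes of low or high GC are likely to follow the GC slope, and so to move together or in opposite directions. The p-values of the pairs do not set them apart from other genes of like GC. PLOD2 and LOX had r = 0.92 over the 9 libraries (rho = 0.85, exact permutation p = 0.000945 and 0.00607, adjusted p = 0.00441 and 0.0283 over 28 pairs, r = 0.69 without the 2 libraries farthest from the median), and PLOD2 and PLOD3 had r = -0.98 (rho = -0.95, exact permutation p = 2.76e-05 and 0.000353, adjusted p = 0.000772 and 0.00988, r = -0.93 without 2). Other pairs did not pass, such as LOXL1 and LOXL4 (r = 0.064, rho = 0.25, exact permutation p = 0.874 and 0.521) and LOX and LOXL4 (r = -0.45, rho = -0.28, exact permutation p = 0.208 and 0.463). With the GC trend removed, the PLOD2 and LOX value was r = 0.19, and the PLOD2 and PLOD3 value was 0.70, of the opposite sign. The genes whose log2 CPM followed the 5 members of at least 10 CPM most closely, among 9127 genes with a mean of at least 10 CPM, were BLM, IPO7 and VPS26A for PLOD2 (r = 0.996, 0.996 and 0.995), USP38, STX7 and TBX18 for LOX (r = 0.994, 0.993 and 0.993), LRRK1, LPCAT4 and TXLNA for LOXL2 (r = 0.992, 0.990 and 0.987), ESPL1, CAPN15 and AGTRAP for PLOD1 (r = 0.990, 0.986 and 0.983) and GTF2IRD1, GET3 and PRPF19 for PLOD3 (r = 0.995, 0.994 and 0.994). The transcripts nearest to PLOD2 and LOX had 36.0% to 41.7% GC and those nearest to the other 3 had 53.6% to 68.8%, so base composition is shared within each of these groups of transcripts. These likeness values describe 9 libraries and carry no test.

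Genes of the same pathway were not called by edgeR with the deposited counts. The 11 lists of related genes held 136 genes besides the 8, of which 115 passed the filter on low counts. In edgeR 0 of 115 were called in each comparison, with 13 at an unadjusted p of 0.05 in Laminin511-E8 against Ctrl, 5 in acetazolamide against Ctrl and 12 in Laminin511-E8 against acetazolamide, where 2.84%, 1.83% and 2.34% of all genes were. With the GC trend removed these counts were 33, 12 and 29, beside 7.74%, 4.16% and 5.67% of all genes. DESeq2 called 5, 2 and 3 of them in that order, all higher, beside 0.131%, 0.0438% and 0.119% of all genes, and limma voom 0. The median log2 fold changes of the 115 genes were 0.060, 0.019 and 0.047, against -0.0033, 0.0049 and 0.0024 over all genes.

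With the deposited counts, the lists closest to the enzymes had no gene at an unadjusted p of 0.05 in edgeR in any comparison. They were the 9 prolyl hydroxylases and partners, 10 collagen glycosyltransferases and chaperones, 7 procollagen proteinases and enhancers, 9 basement membrane collagen chains, 10 genes of copper supply and 9 genes of ascorbate and iron supply that passed the filter. With the GC trend removed, the basement membrane chains had 4, 4 and 3 genes at an unadjusted p of 0.05 in Laminin511-E8 against Ctrl, acetazolamide against Ctrl and Laminin511-E8 against acetazolamide, the ascorbate and iron genes 3, 0 and 2, and each other list at most 1. None of these was called. P4HB, a subunit of prolyl 4-hydroxylase, had 702 ± 122 CPM in Laminin511-E8 cells, 746 ± 167 CPM in acetazolamide-treated cells and 690 ± 66.6 CPM in Ctrl cells (SD, n = 3 each). BMP1, which cleaves the LOX proenzyme and procollagens, had 83.5 ± 19.8 CPM in Laminin511-E8 cells, 90.8 ± 29.7 CPM in acetazolamide-treated cells and 81.2 ± 17.2 CPM in Ctrl cells (SD, n = 3 each). SLC31A1, the main copper importer, had 90.6 ± 3.79 CPM in Laminin511-E8 cells, 94.1 ± 4.06 CPM in acetazolamide-treated cells and 95.3 ± 16.1 CPM in Ctrl cells (SD, n = 3 each). For each of these 3 genes the means lay closer together than 1 SD of the widest group.

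The substrates of the enzymes were present in part. All 9 listed chains of collagens IV, VII, XVII and XVIII passed the filter, with COL4A2 at 212 ± 43.0 CPM in Laminin511-E8 cells, 209 ± 69.6 CPM in acetazolamide-treated cells and 208 ± 28.5 CPM in Ctrl cells (SD, n = 3 each). Of 11 fibrillar chains 4 passed, with COL5A1, a chain of collagen V, at 68.0 ± 13.5, 65.9 ± 15.7 and 63.0 ± 9.02 CPM in Laminin511-E8, acetazolamide and Ctrl cells (SD, n = 3 each). Of 17 elastic fibre genes 13 passed. FBN1, fibrillin-1 of the microfibrils, had 217 ± 12.4 CPM in Laminin511-E8 cells, 264 ± 16.8 CPM in acetazolamide-treated cells and 243 ± 28.3 CPM in Ctrl cells (SD, n = 3 each). At an unadjusted p of 0.05 in edgeR with the deposited counts, Laminin511-E8 against acetazolamide had 2 of the 4 fibrillar chains, 2 of the 13 elastic fibre genes and 1 of the 4 other amine oxidases, and Laminin511-E8 against Ctrl had 1 amine oxidase. With the GC trend removed, the fibrillar chains had 1 in Laminin511-E8 against Ctrl, 1 in acetazolamide against Ctrl and 3 in Laminin511-E8 against acetazolamide, and the elastic fibre genes 2, 1 and 3. None of these was called.

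The targets of hypoxia and TGF-beta, pathways known to raise LOX and PLOD2, held the called genes. With the GC trend removed, edgeR called VEGFA, a growth factor for endothelium, in Laminin511-E8 against Ctrl at 0.77 on the log2 scale (SE 0.075, adjusted p = 0.00304). In the same comparison it called SLC2A3, a glucose transporter, at 0.61 (SE 0.10, adjusted p = 0.0248) and CCN1, a matricellular protein, at 0.63 (SE 0.076, adjusted p = 0.00560), each higher in Laminin511-E8 cells. In Laminin511-E8 against acetazolamide it called SLC2A3, VEGFA and CA12, also higher. In acetazolamide against Ctrl it called 0 genes of both lists, while DESeq2 on the deposited counts called CCN1 (0.51, SE 0.11, adjusted p = 0.0134) and CCN2 (0.47, SE 0.11, adjusted p = 0.0319) there. At an unadjusted p of 0.05, edgeR with the GC trend removed gave 13 of 25 hypoxia and 7 of 20 TGF-beta targets in Laminin511-E8 against Ctrl. It gave 2 and 4 in acetazolamide against Ctrl and 9 and 7 in Laminin511-E8 against acetazolamide. The shares of all genes were 7.74%, 4.16% and 5.67% in that order. With the deposited counts edgeR gave 7 and 5, 1 and 4, and 4 and 4, beside 2.84%, 1.83% and 2.34% of all genes. Among the cholangiocyte markers KRT19 fell by 0.45 on the log2 scale in Laminin511-E8 against Ctrl with the GC trend removed (SE 0.063, edgeR adjusted p = 0.0112). A difference between these genes and the 8 was not tested.

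The 8 genes lie on different chromosomes of GRCh38, in GENCODE release 29 coordinates. LOX (ENSG00000113083) is at chr5:122063195-122078360 (minus strand), LOXL1 (ENSG00000129038) at chr15:73925989-73952137 (plus strand), LOXL3 (ENSG00000115318) at chr2:74532414-74555690 (minus strand) and LOXL4 (ENSG00000138131) at chr10:98247690-98268250 (minus strand). PLOD1 (ENSG00000083444) is at chr1:11934205-11975538 (plus strand), PLOD2 (ENSG00000152952) at chr3:146069440-146163653 (minus strand) and PLOD3 (ENSG00000106397) at chr7:101205977-101218420 (minus strand), and LOXL2 (ENSG00000134013) is on chromosome 8. Some counts could be shared with overlapping genes, since the sources used here do not give the strand setting of the counting. LOXL1 shares 335 exon bases with the antisense gene LOXL1-AS1, which had 755 counts over the 9 libraries against 244 for LOXL1. LOXL3 shares 625 exon bases with HTRA2 and 216 with DOK1 on the opposite strand, PLOD3 shares 429 with ZNHIT1, LOX shares 138 with SRFBP1, and LOXL2 shares 120 with ENTPD4 on the same strand. If strand was not used, reads of the parts shared with genes of the opposite strand could not be told apart. Strand would not separate LOXL2 from ENTPD4, which had 20013 counts against 20394 for LOXL2. HTRA2 had 6179 counts and DOK1 2459, against 846 for LOXL3. The low levels of LOXL1 and LOXL3 are therefore the least certain. LOXL4 shares 152 with AL139241.1, which had 9 counts. PLOD1 and PLOD2 had no exon overlap of this kind, and 0 pseudogenes are named for any of the 8 genes.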

How the data were processed

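RNA of H69 cells was captured by poly(A) and sequenced in 9 libraries. The deposited files hold whole-number counts per gene that the authors did not normalize. The submitters' processing notes name HTSeq 0.11.0, HISAT2 2.2.1, Trimmomatic 0.39, FastQC 0.11.9 and the build GRCh38. Annotation release, strand setting and handling of multiply mapped reads: not given in the sources used here. They bear on genes that overlap others. The total counts, 12529867 to 39518899, set the precision. The limit of 3 counts for a reading of 0 covers counting error only, while the intervals of the fold changes rest on the spread between libraries.

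Of 61541 identifiers, 61369 were matched to names and 159 more were named from GENCODE release 29. Counts were tested by the quasi-likelihood fit of edgeR 4.0.16 (R 4.3.3, robust, filterByExpr, TMM factors, all 9 libraries, 15997 genes, Benjamini-Hochberg adjustment over all of them, threshold 0.05) for 3 comparisons. TPM used the longest protein-coding transcript of GENCODE release 29, and GC content came from the same transcripts. The GC trend of each library (local regression, span 0.3, prior count 2) was removed through offsets over 15737 genes. DESeq2 1.42.0, limma 3.58.1 (voom), other scalings, filters and fits without each library were alternatives. Fits were tested on simulated counts. Libraries of a group had a chi-square of 4.77 to 90.8 for each degree of freedom, above sampling noise, so none was a duplicate. Ranks, correlations and plots used SciPy 1.17.1, pandas 2.3.3 and matplotlib 3.10.9 under Python 3.11.15.

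The 8 genes and the gene lists were chosen with earlier results of these data known. Named genes are the 8 members, up to 3 of the most abundant genes of each list, list members called, the 3 genes most like each member with at least 10 CPM, and genes that overlap a member. No column was left without a sample (0). Some genes of the lists are not reported here by name.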

Additional observations from a re-analysis of the deposited data

How the results depend on the processing

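With the deposited counts 0 genes were called in any comparison, at thresholds of 0.05 and 0.01, under limma voom, RLE and upper-quartile scaling, the legacy fit, other filters, the 6 libraries of a comparison alone, and without each library in turn (0 to 0). DESeq2 called 21 genes in Laminin511-E8 against Ctrl, 7 in acetazolamide against Ctrl and 19 in Laminin511-E8 against acetazolamide. With the GC trend removed edgeR called 51, 0 and 30 in that order. Leaving out 1 library as well, chosen after seeing the data, gave 10, 38 and 27 in the first comparison without Ctrl replicates 1, 2 and 3 in turn, and 7, 24 and 12 without Laminin511-E8 replicates 1, 2 and 3. In the second it gave 3 without acetazolamide replicate 2 and 0 without each other library. In the third it gave 0, 10 and 11 without Laminin511-E8 replicates 1, 2 and 3, and 4, 27 and 16 without acetazolamide replicates 1, 2 and 3. Same-numbered libraries did not deviate together (correlations of -0.65 to 0.24, over 0.1 in 2 of 9 pairs), so the numbers were not taken as pairs. The replicate block called 0 genes in each comparison, and with the GC trend removed 11, 0 and 0. The count of the 8 members called was 0 in every one of these fits.

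The members' own values stayed within the same uncertainty. Of 408 log2 fold changes under alternatives, 0 passed the threshold, 51 had the opposite sign to the value reported, and the values ran from -0.50 to 0.54. Since no difference was called, no direction rests on them.

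In Laminin511-E8 against Ctrl, LOXL4 had -0.0036 with DESeq2, -0.016 with limma voom, -0.0036 with RLE scaling, -0.018 with no filter, -0.0089 with the replicate block, -0.038 with the GC trend removed and -0.028 with both, and PLOD2 had -0.027 with limma voom and -0.0041 with no filter. In acetazolamide against Ctrl, without the GC trend and then with the replicate block added, LOXL2 had -0.037 and -0.037, PLOD1 -0.034 and -0.034, and PLOD2 0.011 and 0.0087. In Laminin511-E8 against acetazolamide, LOXL1 had 0.029 with limma voom, 0.091 without the GC trend and 0.052 with the replicate block added, and PLOD1 had -0.022 with upper-quartile scaling and -0.0042 with at least 10 counts in every library. The cause was not tested.

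Without 1 library at a time, the values of Laminin511-E8 against Ctrl were -0.35 to -0.037 for LOX, -0.15 to 0.50 for LOXL1, -0.21 to 0.14 for LOXL4, -0.054 to 0.22 for PLOD1, -0.14 to 0.20 for PLOD2 and -0.089 to 0.14 for PLOD3. Those of acetazolamide against Ctrl were -0.39 to 0.057 for LOX, -0.11 to 0.54 for LOXL1, -0.074 to 0.17 for LOXL2, -0.11 to 0.26 for PLOD1 and -0.45 to 0.10 for PLOD2. Those of Laminin511-E8 against acetazolamide were -0.25 to 0.19 for LOX, -0.28 to 0.24 for LOXL1, -0.060 to 0.18 for LOXL2, -0.50 to -0.22 for LOXL3, -0.036 to 0.28 for LOXL4, -0.19 to 0.18 for PLOD1, -0.10 to 0.45 for PLOD2 and -0.26 to 0.033 for PLOD3. Depth limits LOXL1 most, with 16 to 45 counts per library.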
